A study of Mus musculus with 16 samples.

Results

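The aquaporins described here are 6 genes of the count table, Aqp1, Aqp3, Aqp4, Aqp7, Aqp8 and Aqp11, chosen by matching the listed mouse symbols to Ensembl identifiers of the table. They are 6 of 12 aquaporin genes among 21965 genes, and all 6 passed the filter on low counts. Read counts came from whole pieces of terminal ileum of 16 male mice on a C57BL/6 background, with 1 library per mouse. WT PF (n = 4) and fat-1 PF (n = 4) mice were pair-fed (PF) a control Lieber-DeCarli liquid diet, with maltose dextrin in place of the calories of EtOH. Their daily amount was matched to what the EtOH mice had eaten the day before. WT EtOH (n = 3) and fat-1 EtOH (n = 5) mice were given the same diet with EtOH raised step by step to 6% (v/v), which they drank for the last 3 weeks. The fat-1 mice, labelled Fat1+/-, carried the C. elegans n3 fatty acid desaturase fat-1 in all tissues as heterozygotes, and their WT littermates did not; all were 8 to 10 weeks old at the start. The comparisons addressed how EtOH and endogenous n3 PUFAs altered the intestinal transcriptome. Library totals were 8422645 to 11438539 counted reads, so 3 reads in a library stood for 0.246 to 0.421 CPM (reads per 1000000 of the library total after TMM scaling). P-values rest on the spread between mice.

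Aquaporins are membrane channels that let water pass along an osmotic gradient. A subfamily, the aquaglyceroporins, also passes glycerol and other small uncharged solutes, and a further subfamily, to which Aqp11 belongs, lies mainly in intracellular membranes. In the gut, water follows salt and nutrients that the epithelium takes up or secretes, and aquaporins of the epithelium, of capillaries and of enteric glia are known there. Aqp1 is the water channel of endothelium and red cells, Aqp4 is that of astrocytes and is anchored by the dystrophin complex, and Aqp8 is known from the surface epithelium of the large intestine and from pancreatic acinar cells. Aqp3 and Aqp7 are aquaglyceroporins, Aqp3 of basolateral epithelial membranes and Aqp7 of adipocytes and of the brush border of small intestine and kidney. In these bulk samples, fewer cells of a type and less RNA per cell cannot be told apart.

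Several libraries stood apart in markers of gut segments, which touches the results below. Car1, a carbonic anhydrase of the large intestine, was 4040 CPM in WT EtOH 2, 11200 in fat-1 EtOH 3 and 12200 in fat-1 EtOH 4, and 79.1 or less in the other 13 mice. Of 9 large intestine markers, 1 (Fxyd4) had no read in any mouse. The 9 summed to 4090 to 12300 CPM in these 3 mice against 32.0 to 115 in the other EtOH mice. Car1, by which the 3 mice were picked, made up most of the sums in the 3. Hoxd10, another of the 9, was 7.30 and 7.05 CPM in fat-1 EtOH 3 and 4. It was 0.735 CPM in WT EtOH 2, near the 0.599 of fat-1 EtOH 5, which was the highest of the other 13 mice. The lipoprotein gene Apoa1 of the small intestine was 36.2 and 53.9 CPM in fat-1 EtOH 3 and 4, but 3770 in WT EtOH 2. The 6 proximal small intestine markers summed to 7850 to 65000 CPM in the PF mice and to 55.4 to 5290 in the EtOH mice. In fat-1 PF 2 and 4, Onecut2, a transcription factor of the duodenum, was 45.6 and 74.7 CPM against 10.9 or less elsewhere, and the ileal bile acid transporter Slc10a2 was 7.58 and 3.56 CPM against 394 or more elsewhere. The part of these differences in the aquaporin results was not tested. Values without the 3 and without the 2 libraries are given beside each aquaporin's diet result in fat-1 mice and in the mean over the genotypes. These alternatives were chosen after seeing the data. Libraries were numbered 1 to 8 for PF and 9 to 16 for EtOH, so library order cannot be told apart from diet.

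The promoters of 4 aquaporins are shown. Of these, Aqp3 and Aqp11 were lower with EtOH, Aqp8 was read in 3 mice at a high level, and Aqp7 was nearly lost in 2 of these 3. Aqp1, which was also lower with EtOH, matched a window that is not shown. RefSeq windows (GRCm38.p6) of 300 bases, from 250 bases before to 50 after a start, matched 5 of the 6 symbols, with 2 starts for Aqp7, of which the more upstream is shown. Capitals mark matches on either strand to any of 5 motifs. Each motif is spelled out after the sequences.
Aqp3, chr4:41098134-41098433, minus strand: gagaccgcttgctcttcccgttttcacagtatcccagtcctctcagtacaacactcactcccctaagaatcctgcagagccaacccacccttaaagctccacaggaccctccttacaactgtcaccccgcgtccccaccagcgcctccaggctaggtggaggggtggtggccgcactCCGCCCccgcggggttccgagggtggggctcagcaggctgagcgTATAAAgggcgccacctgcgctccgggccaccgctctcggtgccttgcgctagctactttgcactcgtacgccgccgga
Aqp11, chr7:97738198-97738497, minus strand: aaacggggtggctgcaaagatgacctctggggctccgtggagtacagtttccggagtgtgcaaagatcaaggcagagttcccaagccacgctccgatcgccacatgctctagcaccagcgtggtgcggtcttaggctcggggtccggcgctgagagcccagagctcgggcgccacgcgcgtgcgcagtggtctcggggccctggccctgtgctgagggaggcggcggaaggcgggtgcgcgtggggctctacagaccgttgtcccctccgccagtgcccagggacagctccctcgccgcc
Aqp7, chr4:41048087-41048386, minus strand: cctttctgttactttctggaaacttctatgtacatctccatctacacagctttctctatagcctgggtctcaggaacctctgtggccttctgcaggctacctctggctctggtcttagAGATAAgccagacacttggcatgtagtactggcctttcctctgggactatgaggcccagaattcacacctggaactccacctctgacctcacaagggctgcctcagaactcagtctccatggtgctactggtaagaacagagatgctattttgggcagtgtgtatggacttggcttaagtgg
Aqp8, chr7:123462044-123462343, plus strand: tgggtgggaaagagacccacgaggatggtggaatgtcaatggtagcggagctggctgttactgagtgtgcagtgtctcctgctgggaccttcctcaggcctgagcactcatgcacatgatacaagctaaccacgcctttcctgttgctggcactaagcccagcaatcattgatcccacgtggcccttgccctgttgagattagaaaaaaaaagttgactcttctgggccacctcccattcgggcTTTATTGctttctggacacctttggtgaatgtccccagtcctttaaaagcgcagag
The Aqp3 window held a TATA box (searched as TATAAA) beginning 29 bases before the start. On the opposite strand it held a GC box (searched as GGGCGG) beginning 73 bases before the start. A site of GATA factors (searched as AGATAA) began 132 bases before the Aqp7 start. A site of CDX factors (searched as TTTATNG) began 6 bases before the Aqp8 start. A site of the nuclear receptor HNF4 (searched as CAAAGTCCA) was in none of the 4 windows, and the Aqp11 window held none of the 5 motifs. Among all 32851 windows of this length, 13.6% held the TATA box, 35.7% the GC box, 11.2% the GATA site, 10.9% the CDX site and 0.475% the HNF4 site, and a match is a description only. The Aqp3 and Aqp11 windows were richer in GC, at 64.0% and 68.0%, than the Aqp7 and Aqp8 windows, at 49.7% and 52.0%, with a median of 52.7% over all windows.

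Aqp1 was the most abundant aquaporin per length in the PF mice. Its level, in CPM per kb of exon, was 106 ± 23.8 (SD, n = 4) in WT PF mice, whereas Aqp7 was 8.67 ± 1.65, Aqp11 7.18 ± 1.64, Aqp3 7.04 ± 3.63, Aqp4 2.10 ± 0.43 and Aqp8 0.121 ± 0.242. The neighbours Aqp7, Aqp11 and Aqp3 did not differ beyond their spread. Their order, and the size of the lead of Aqp1, also depend on the length used. Divided by its longest (3737 bases) or shortest (896 bases) coding transcript in place of its merged exons (9418 bases), Aqp11 was 18.1 or 75.5 CPM per kb, and Aqp4 was likewise 2.58 or 28.8, whereas Aqp1, with 1 coding transcript, stayed at 106. The shares that follow use merged exons. Aqp1 made up 62.4% to 83.4% of the summed CPM per kb of the 6 genes in the 8 PF mice and 71.5% to 79.5% in the 5 EtOH mice with low Car1. In WT EtOH 2, fat-1 EtOH 3 and fat-1 EtOH 4 it made up 18.5%, 39.8% and 50.4%, and Aqp8 made up 74.4%, 50.6% and 41.2%. In the first 2 of these 3 mice, Aqp8 was the leading aquaporin.

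**Figure D1:**
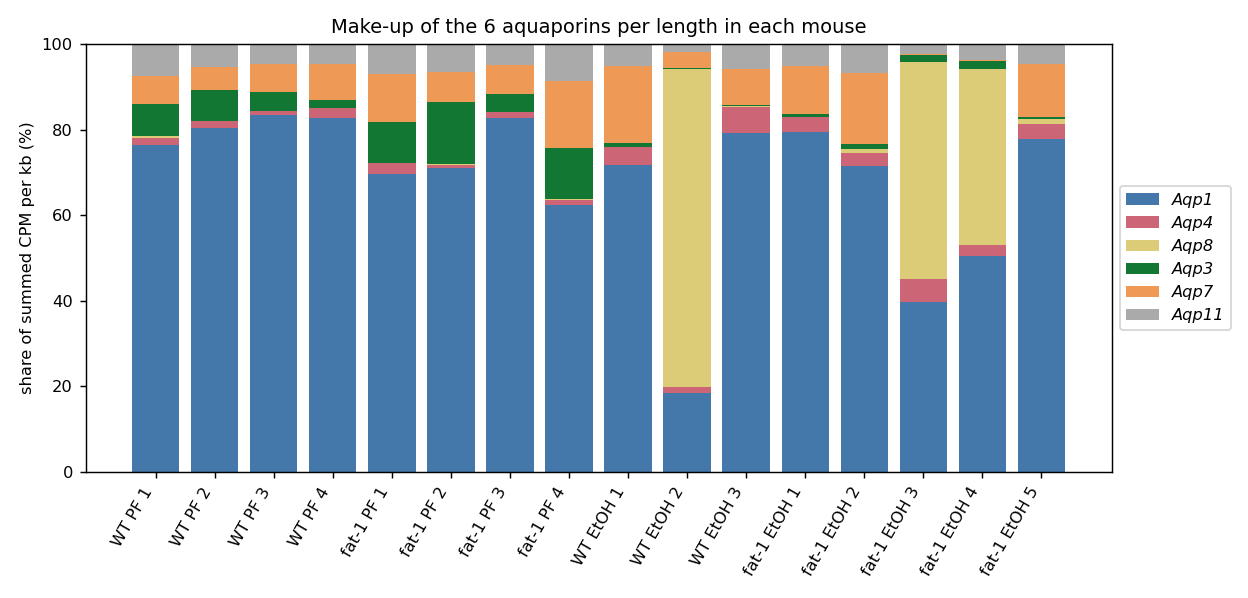
Share (%) of each of the 6 aquaporins in their summed CPM per kb of exon, 1 bar per mouse. Aqp1 takes 62.4% to 83.4% of every PF bar, and Aqp8 takes 41.2% to 74.4% of the bars of WT EtOH 2 and fat-1 EtOH 3 and 4.

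Between fat-1 EtOH and fat-1 PF mice, the quasi-likelihood test of edgeR, with p-values adjusted by Benjamini-Hochberg, called 5 of the 6 aquaporins at an adjusted p of 0.05, where it called 37.4% of the 13811 genes tested. Of these 5, Aqp4 and Aqp8 were higher (18.7% of all genes) and Aqp1, Aqp3 and Aqp11 lower (18.8% of all genes). Aqp8 passed the filter on low counts through the EtOH mice in which it was high, so that its count as higher follows from the filter and supports nothing. The same 5, in the same directions, were called in the mean of both genotypes' diet differences, where 35.9% of all genes were called, 18.3% higher and 17.6% lower. The other comparisons held no call. In WT EtOH vs WT PF, edgeR called 0 of 6 (0.0796% of all genes) and 4 had an unadjusted p under 0.05 (14.1% of all genes); DESeq2 called 2, Aqp1 and Aqp3 (1.86% of all genes), and limma voom with quality weights called 4, Aqp1, Aqp3, Aqp4 and Aqp11 (20.3% of all genes). In fat-1 PF vs WT PF, edgeR called 0 of 6 (0% of all genes), limma voom called 0 (0.224% of all genes) and DESeq2 called 0 (1.37% of all genes) of the 5 to which it gave an adjusted p, which it did not for Aqp3. There 1 gene, Aqp11, had an unadjusted p under 0.05 (12.7% of all genes). In fat-1 EtOH vs WT EtOH, edgeR, DESeq2 and limma voom called 0 of 6 (0.00724% of all genes by edgeR), and 0 had an unadjusted p under 0.05 (4.86% of all genes). The interaction of genotype and diet was called for 0 of 6 by all 3 tools (0% of all genes by edgeR), with 0 at an unadjusted p under 0.05 (8.26% of all genes), so that a diet difference called in fat-1 and not in WT mice was not shown to differ between them. The share of all genes whose mice did not overlap was 24.3% in WT EtOH vs WT PF (Aqp1, Aqp3 and Aqp4 among them), 24% between fat-1 EtOH and fat-1 PF (Aqp3 and Aqp11), 6.87% in fat-1 PF vs WT PF, 2.45% in fat-1 EtOH vs WT EtOH and 7.79% between all EtOH and all PF mice, with no aquaporin in the last 3.

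**Figure D2:**
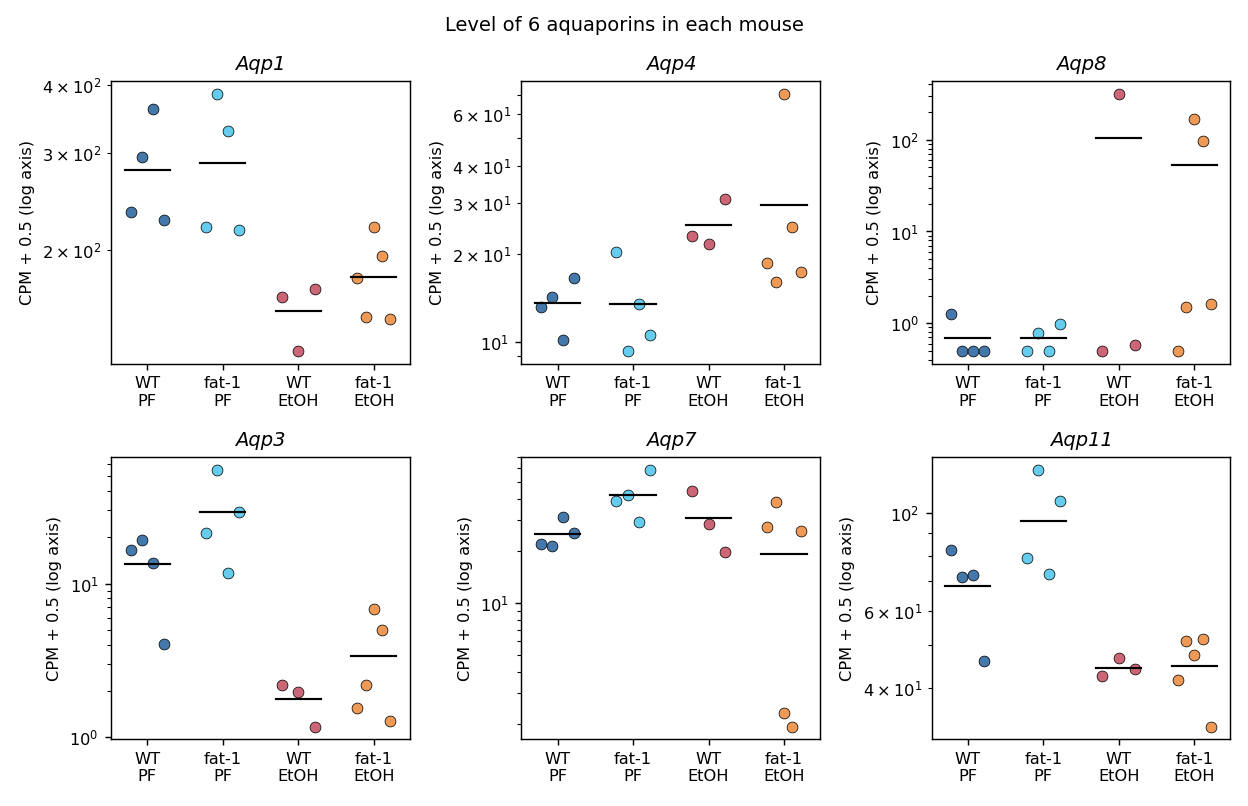
CPM + 0.5 (log axis) of the 6 aquaporins, 1 point per mouse in the order of its replicate number, with the group mean as a line. Aqp3 lies lower in the EtOH groups and Aqp11 lies lower in fat-1 EtOH than in fat-1 PF mice, while Aqp8 is split within both EtOH groups and Aqp7 within fat-1 EtOH mice.

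**Figure D3:**
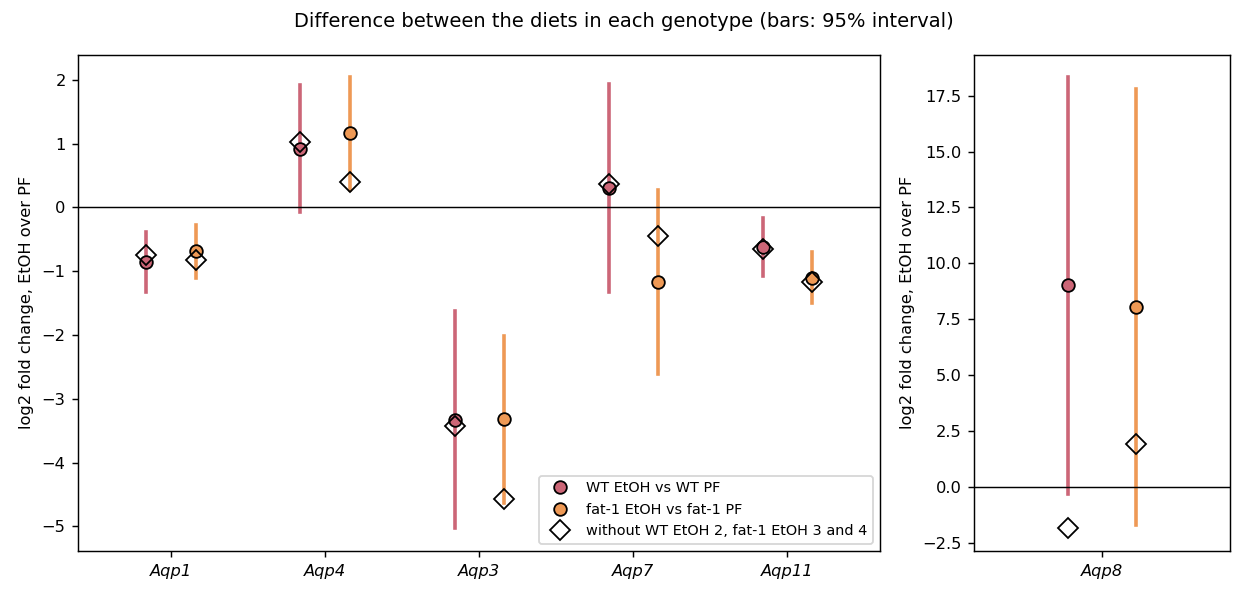
Log2 fold change of EtOH over PF in WT and fat-1 mice (filled points, with 95% Wald intervals as bars) and the same without WT EtOH 2 and fat-1 EtOH 3 and 4 (open diamonds); Aqp8 has an axis of its own. The intervals of Aqp3, Aqp1 and Aqp11 lie below 0 in both genotypes, and the Aqp8 point in WT mice moves from 9.01 to -1.86 without these mice.

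Aqp1, the water channel of endothelium, was lower with EtOH. Aqp1 (ENSMUSG00000004655, chr6:55336432-55348555, plus strand) was 234, 295, 361 and 226 CPM in WT PF 1 to 4 and 163, 130 and 169 in WT EtOH 1 to 3. In fat-1 mice it was 219, 385, 329 and 217 CPM in PF 1 to 4 and 177, 150, 219, 194 and 149 in EtOH 1 to 5. All 3 WT EtOH mice lay under all 4 WT PF mice, and fat-1 EtOH 3 lay level with the 2 lowest fat-1 PF mice. The log2 fold change was -0.69 in fat-1 (SE 0.20, 95% interval -1.11 to -0.28, adjusted p = 0.013 by edgeR) and -0.86 in WT mice (SE 0.22, adjusted p = 0.171). The mean over the genotypes was -0.78 (SE 0.15, adjusted p = 0.00169), which was -0.79 without the 3 large intestine marker libraries (adjusted p = 0.00361) and -0.74 without fat-1 PF 2 and 4 (adjusted p = 0.00536). In fat-1 mice the log2 fold change was -0.83 without the 3 large intestine marker libraries (adjusted p = 0.0135). There the call was lost without fat-1 PF 2 (log2 fold change -0.51, adjusted p = 0.0607) and without fat-1 PF 2 and 4 (-0.62, adjusted p = 0.0651). Of 11 blood endothelium markers, 1 was called lower (Plvap, a protein of capillary diaphragms, -0.91, SE 0.29, adjusted p = 0.0256) and none higher in the mean EtOH vs PF (17.6% and 18.3% of all genes), and their summed level was 85.0 to 178 CPM in PF and 65.8 to 218 in EtOH mice. Of 5 red blood cell genes tested, 1 was called lower and none higher in the mean (17.6% and 18.3% of all genes). Their median log2 fold change was -0.82 in the mean, -1.3 in WT and -0.25 in fat-1 mice. The 7 red blood cell genes of the list summed to 13.7 to 43.1 CPM in PF and 6.4 to 37.3 in EtOH mice. In the mean, none of these endothelial or red cell genes was called without the large intestine marker libraries, and 1 endothelial gene was called higher without fat-1 PF 2 and 4. The part of either cell type was not tested.

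Aqp4, the main water channel of astrocytes, was higher with EtOH in the mean over both genotypes. Aqp4 (ENSMUSG00000024411, chr18:15389496-15410982, minus strand) was 12.7, 13.8, 9.66 and 16.1 CPM in WT PF 1 to 4 and 22.6, 21.2 and 30.4 in WT EtOH 1 to 3, without overlap. It was 19.9, 8.84, 13 and 10.1 CPM in fat-1 PF 1 to 4 and 18.1, 15.5, 70.0, 24.3 and 16.9 in fat-1 EtOH 1 to 5. Here fat-1 PF 1 lay above 3 of the EtOH mice, and fat-1 EtOH 3 lay far above the rest. The log2 fold change was 1.16 in fat-1 mice (SE 0.41, adjusted p = 0.0433 by edgeR), and fell to 0.54 without fat-1 EtOH 3 (adjusted p = 0.107) and to 0.39 without the large intestine marker libraries (adjusted p = 0.253). The call was also lost, at 1.02 to 1.17, without any 1 of WT PF 1, 2 and 4, fat-1 PF 2, 3 and 4 and WT EtOH 1, 2 and 3. It was lost as well without fat-1 PF 2 and 4 together (0.81, adjusted p = 0.293), by limma voom (0.70, adjusted p = 0.145) and with only the groups compared (1.17, adjusted p = 0.113). In WT mice it was 0.92 (SE 0.47, 95% interval -0.08 to 1.92, adjusted p = 0.383). The mean over the genotypes was 1.04 (SE 0.31, adjusted p = 0.0193), 0.70 without the large intestine marker libraries (adjusted p = 0.0131). That call was lost without WT EtOH 3 (0.95, adjusted p = 0.0514) and without fat-1 PF 2 and 4 (0.87, adjusted p = 0.0923).

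Of 8 genes of the complex that holds Aqp4 in the membrane, 3 were called higher (18.3% of all genes) and 1 lower (17.6% of all genes) in the mean EtOH vs PF, with a median log2 fold change of 0.27 against 0.04 over all genes. These counts were 4 and 1 without the large intestine marker libraries (32.9% of all genes called in either direction) and 2 and 1 without fat-1 PF 2 and 4 (23.9% of all genes called). Dtna, which encodes alpha-dystrobrevin, was the only member called in WT mice, with a mean of 4.52 CPM in WT PF and 10.2 in WT EtOH mice (log2 fold change 1.18, SE 0.19, adjusted p = 0.0388 by edgeR). In the mean over the genotypes it was 1.2 (SE 0.13, adjusted p = 9.99e-05). Dmd, which encodes dystrophin, rose by 0.59 (SE 0.14, adjusted p = 0.00459). Muscle and nerve markers moved with these genes. All 8 smooth muscle markers were called higher in the mean EtOH vs PF (median 1.10), with a summed level of 953 to 1510 CPM in PF and 1960 to 4160 in EtOH mice. Of 8 enteric neuron and glia markers, 4 were called higher and none lower (median 0.88), and they summed to 6.90 to 13.7 CPM in PF and 12.7 to 37.7 in EtOH mice. Without the large intestine marker libraries, and likewise without fat-1 PF 2 and 4, all 8 smooth muscle markers were called higher, and 1 of the 8 neuron and glia markers was. Their part in the Aqp4 difference was not tested.

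Aqp8, a water channel of the large intestinal surface, was read at a high level in 3 mice and hardly at all in the others. Aqp8 (ENSMUSG00000030762, chr7:123462291-123468004, plus strand) had 7, 0, 0 and 0 reads in WT PF 1 to 4 and 0, 2, 0 and 4 in fat-1 PF 1 to 4. It had 0, 3002 and 1 reads in WT EtOH 1 to 3 and 0, 12, 2047, 1069 and 13 in fat-1 EtOH 1 to 5. These were 315 CPM in WT EtOH 2, 168 in fat-1 EtOH 3 and 95.4 in fat-1 EtOH 4, the same 3 mice in which Car1 was above 1000 CPM, and at most 1.11 CPM in any other mouse. Within the 3, the order differed, since WT EtOH 2 had the most Aqp8 and the least Car1. The log2 fold change was 8.05 in fat-1 mice (adjusted p = 0.0421 by edgeR), with a Wald interval of -1.72 to 17.82 that crosses 0, and it was 1.90 without the 3 libraries (adjusted p = 0.258) and 1.68 by limma voom (adjusted p = 0.734). Without fat-1 PF 2 and 4 it was 12.07 (adjusted p = 0.202). The call was also lost, at 6.94 to 9.11, without any 1 of the 8 PF mice, fat-1 EtOH 3 or fat-1 EtOH 4. In WT mice it was 9.01 (SE 4.36, adjusted p = 0.215), -1.87 without WT EtOH 2. In the mean over the genotypes it was 8.53 (adjusted p = 0.00637), 0.02 without the 3 libraries (adjusted p = 0.973), 3.09 without WT EtOH 2 (adjusted p = 0.722) and 1.31 by limma voom (adjusted p = 0.636). Without fat-1 PF 2 and 4 the mean was 10.54 (adjusted p = 0.0511). The 6 pancreatic acinar genes summed to at most 22.8 CPM in PF mice, to 0.105 to 6.81 in the 3 mice with high Aqp8 and to at most 0.257 in the other EtOH mice, and their part was not tested.

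Aqp3, an aquaglyceroporin of basolateral membranes, showed the largest EtOH difference among the members with reads in every mouse. Aqp3 (ENSMUSG00000028435, chr4:41092722-41098183, minus strand) was 16.1, 18.8, 13.1 and 3.53 CPM in WT PF 1 to 4 and 1.70, 1.47 and 0.672 in WT EtOH 1 to 3. It was 20.7, 54.7, 11.3 and 28.8 CPM in fat-1 PF 1 to 4 and 1.05, 1.70, 6.31, 4.46 and 0.77 in fat-1 EtOH 1 to 5. The groups did not overlap in either genotype, though WT PF 4 (3.53 CPM) lay under fat-1 EtOH 3 and 4. The log2 fold change was -3.32 in fat-1 mice (SE 0.61, 95% interval -4.64 to -2.01, adjusted p = 0.00158 by edgeR) and -3.33 in WT mice (SE 0.79, adjusted p = 0.156). The mean over the genotypes was -3.32, a 10-fold lower level (SE 0.50, adjusted p = 0.000579). It was -4.00 without the large intestine marker libraries and -2.90 without fat-1 PF 2 and 4, and in fat-1 mice -4.57 and -2.48, all with an adjusted p of 0.0363 or less. Between the genotypes on the PF diet it was 1.17 (SE 0.62, adjusted p = 0.465) higher in fat-1 mice, and 0.31 without fat-1 PF 2 and 4.

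WT PF 4, lowest of the 8 PF mice in Aqp3, was also lowest in Gata4, a transcription factor of the proximal small intestine, at 25.6 CPM, and fat-1 PF 2, the highest in Aqp3, was highest in Gata4 at 156 CPM. Other proximal genes had another order at the top, since Onecut2 (74.7 CPM) and Apoa1 (15600 CPM) were highest in fat-1 PF 4, while Lct was highest in fat-1 PF 2 (2980 CPM). In EtOH mice Gata4 was at most 1.11 CPM, and the highest Aqp3 values there, in fat-1 EtOH 3 and 4, came with the lowest Gata4, at 0 and 0.0892 CPM. Of 6 proximal markers, 5 were called lower and none higher in the mean EtOH vs PF (17.6% and 18.3% of all genes), with a median of -6.47. Without the large intestine marker libraries 6 were called lower (32.9% of all genes called in either direction). Without fat-1 PF 2 and 4 these were 5 (23.9% of all genes called). Lct, the gene of lactase, fell by 10.76 in the mean (SE 0.68, adjusted p = 1.62e-05). The part of gut position in the Aqp3 difference was not tested.

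**Figure D4:**
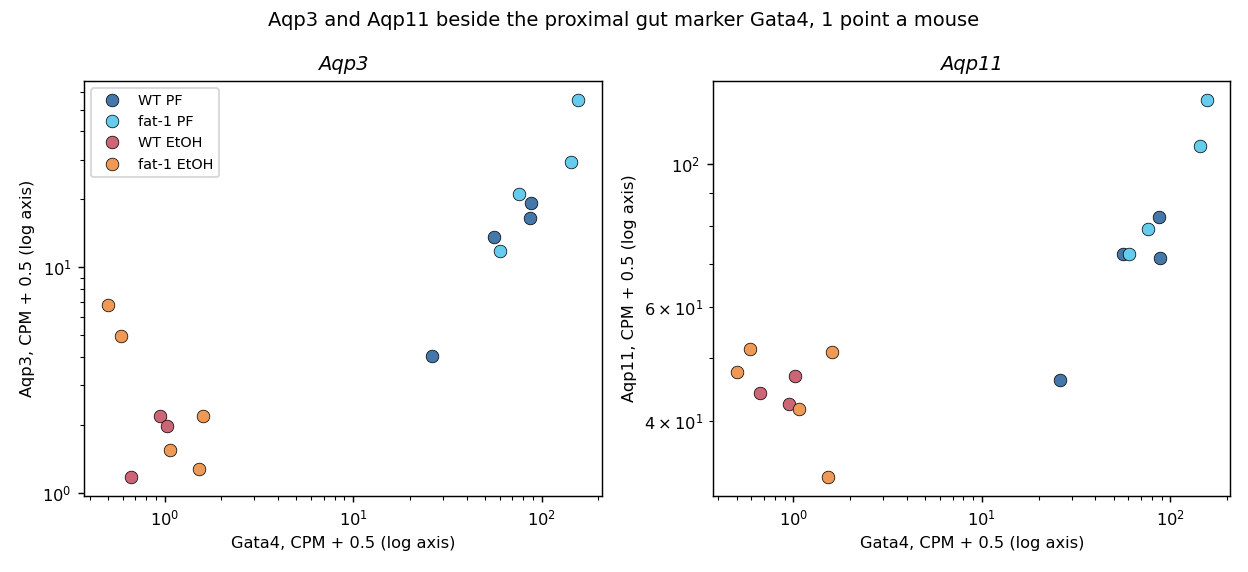
Aqp3 (left) and Aqp11 (right) against the proximal small intestine marker Gata4, all as CPM + 0.5 on log axes, 1 point per mouse. PF mice lie to the right, from 25.6 to 156 CPM of Gata4, and EtOH mice to the left, at 1.11 CPM or less.

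Aqp7, the aquaglyceroporin of adipocytes, was not called in any comparison but was nearly lost in 2 mice. Aqp7 (ENSMUSG00000028427, chr4:41033074-41048139, minus strand) lies 44.6 kb from Aqp3 on the same strand, with 1 other gene annotated between them. It was 21.3, 20.9, 31.0 and 24.8 CPM in WT PF 1 to 4 and 43.7, 28.2 and 19.2 in WT EtOH 1 to 3. It was 38.5, 41.4, 28.8 and 58.5 CPM in fat-1 PF 1 to 4 and 26.8, 37.6, 1.80, 1.43 and 25.5 in fat-1 EtOH 1 to 5. In fat-1 EtOH 3 and 4, which had 22 and 16 reads of it, Apoa1 was also at its lowest, whereas WT EtOH 2, with high Car1 and Aqp8, kept 28.2 CPM of Aqp7 and 3770 of Apoa1. The log2 fold change was -1.17 in fat-1 mice (SE 0.67, 95% interval -2.61 to 0.27, adjusted p = 0.181 by edgeR), 0.31 in WT mice (SE 0.76, adjusted p = 0.886) and -0.43 in their mean (SE 0.51, adjusted p = 0.533). Without the large intestine marker libraries these were -0.45, 0.36 and -0.04, and without fat-1 PF 2 and 4 they were -0.84, 0.32 and -0.26. Of 8 adipocyte markers, 1 (Retn, the hormone resistin) was called higher and none lower in the mean (18.3% and 17.6% of all genes), with a median of 0.71. None was called in the mean without the large intestine marker libraries, nor without fat-1 PF 2 and 4. In fat-1 mice 1 (Cidec, a lipid droplet protein) was called lower and none higher (18.8% and 18.7% of all genes), while the median of the 8 was 1.13. No adipocyte marker was called in fat-1 mice without the large intestine marker libraries, nor without fat-1 PF 2 and 4. The 8 summed to 246 to 672 CPM in PF and 208 to 1150 in EtOH mice. In WT EtOH 2 and fat-1 EtOH 3 and 4 they summed to 400 to 441 CPM. The part of adipocytes in the Aqp7 values was not tested. The neighbouring genes Aqp3 and Aqp7 thus differed in the mean EtOH vs PF by -3.32 and -0.43 on the log2 scale, a difference between genes that was not tested.

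**Figure D5:**
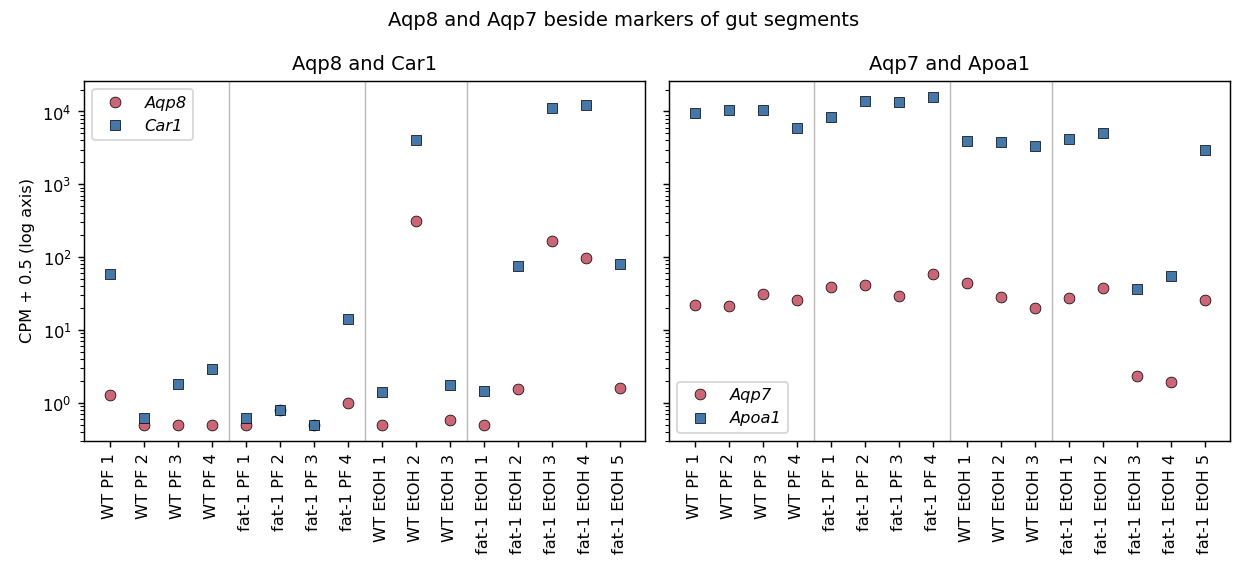
CPM + 0.5 (log axis) of Aqp8 and the large intestine marker Car1 (left) and of Aqp7 and the small intestine gene Apoa1 (right) in each mouse, with lines between the 4 groups. Aqp8 and Car1 are both high in WT EtOH 2 and fat-1 EtOH 3 and 4, and Aqp7 and Apoa1 are both low in fat-1 EtOH 3 and 4 only.

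Glycerol that aquaglyceroporins carry is released and used by lipases and by enzymes of glycerol phosphate. Of 11 genes of glycerol handling, 6 were called lower (17.6% of all genes), 2 higher (18.3% of all genes) and 3 not at all in the mean EtOH vs PF, with a median of -0.51 against 0.04 over all genes. Gpd1, the cytosolic glycerol-3-phosphate dehydrogenase, fell by 1.30 (SE 0.25, adjusted p = 0.00203), and Lipe, hormone-sensitive lipase, fell by 1.10 (SE 0.24, adjusted p = 0.0039). Mgll, monoacylglycerol lipase, rose by 1.33 (SE 0.41, adjusted p = 0.0225), and Gpat4, an acyltransferase of glycerol-3-phosphate, rose by 0.57 (SE 0.09, adjusted p = 0.000599). Without the large intestine marker libraries 5 were called lower and 1 higher (median -0.34, with 32.9% of all genes called in either direction), and without fat-1 PF 2 and 4 these were 3 and 1 (median -0.52, with 23.9% of all genes called). In WT mice none of the 11 was called by edgeR (0.0796% of all genes), and 3 had an unadjusted p under 0.05 (14.1% of all genes).

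Aqp11, the aquaporin of intracellular membranes, was lower with EtOH in fat-1 mice. Aqp11 (ENSMUSG00000042797, chr7:97724006-97738289, minus strand) was 78.6, 125, 72.0 and 106 CPM in fat-1 PF 1 to 4 and 41.2, 50.6, 47.0, 51.1 and 32.2 in fat-1 EtOH 1 to 5. It was 82.1, 70.9, 71.9 and 45.7 CPM in WT PF 1 to 4 and 42.0, 46.4 and 43.7 in WT EtOH 1 to 3. All fat-1 EtOH mice lay under all fat-1 PF mice, and WT PF 4 lay within the WT EtOH mice. The log2 fold change was -1.10 in fat-1 mice (SE 0.19, 95% interval -1.50 to -0.70, adjusted p = 0.000788 by edgeR), -0.62 in WT mice (SE 0.22, adjusted p = 0.24) and -0.86 in their mean (SE 0.14, adjusted p = 0.00077). In the fat-1 mice it was -1.17 without the large intestine marker libraries (adjusted p = 0.00407) and -0.76 without fat-1 PF 2 and 4 (adjusted p = 0.0275), the 2 PF mice with the highest Aqp11. The mean over the genotypes was then -0.91 (adjusted p = 0.00252) and -0.69 (adjusted p = 0.00525). On the PF diet Aqp11 was 0.50 higher on the log2 scale in fat-1 than in WT mice (SE 0.20, unadjusted p = 0.025, adjusted p = 0.311), and 0.15 without these 2 mice.

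Ion transporters and their regulators set the gradients that water follows. Of 19 genes tested of a list of 20, 2 were called higher (18.3% of all genes) and 5 lower (17.6% of all genes) in the mean EtOH vs PF, with a median of 0.04, as over all genes. Guca2b, the gut peptide uroguanylin, fell by 2.04 (SE 0.46, adjusted p = 0.00551), and Slc5a1, the sodium-glucose transporter, fell by 1.63 (SE 0.42, adjusted p = 0.0105). The 2 that rose were Ano1, a calcium-activated chloride channel, by 0.85 (SE 0.21, adjusted p = 0.0072), and Slc12a2, the basolateral sodium-potassium-chloride cotransporter, by 0.78 (SE 0.20, adjusted p = 0.00768). Without the large intestine marker libraries 8 of 18 tested were called lower and 2 higher (median -0.08), where 32.9% of all genes were called in either direction. Without fat-1 PF 2 and 4 these were 3 and 2 of 20 tested (median 0.16), where 23.9% of all genes were called. In WT mice none was called by edgeR (0.0796% of all genes), and none had an unadjusted p under 0.05 (14.1% of all genes).

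Genes whose log2 CPM ranked the 16 mice most like each aquaporin are given as a description, since the mice share their group, segment markers and depth. For Aqp3 these were Pkm and Eno1 (Spearman's rho 0.976 each) and Gstp1 (0.974), and for Aqp11 they were Cyp2d26 (0.971), Fam234a (0.965) and Aadac (0.962). Aqp4 was nearest to Tsr1 (0.953), Pla2g3 (0.950) and Ipo5 (0.941), and Aqp8 to Als2cl (0.906), Prcp (0.903) and Hoxa10 (0.901). Aqp1 was nearest to Pccb (0.879), Hes6 (0.876) and Avpi1 (0.874), and Aqp7 to Slc47a1 and Osbpl1a (0.835 each) and Slc31a1 (0.832). Over the 13 mice without WT EtOH 2 and fat-1 EtOH 3 and 4, these 18 values lay between 0.742 and 0.973. Among the members, Aqp3 and Aqp11 were the most alike pair (0.912, and 0.896 over 13 mice), Aqp1 was alike to Aqp3 (0.756) and Aqp11 (0.682), and Aqp4 ran opposite to Aqp11 (-0.647), Aqp1 and Aqp3 (-0.609 each).

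The other 6 aquaporin genes were at or near 0 reads. Aqp2 and Mip had no read in any mouse and Aqp6 had 1 in all. Aqp9, an aquaglyceroporin of liver, had 1 to 6 reads per PF mouse and 1 to 13 per EtOH mouse. Aqp12, a pancreatic aquaporin, was found in 2 of 8 PF mice (3 reads) and 7 of 8 EtOH mice (24 reads), and Aqp5, of glands, in 2 of 8 of each (6 and 2 reads). None passed the filter on low counts, so that no test was made, and levels of 3 reads or fewer per mouse cannot be told apart from 0 at this depth.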

How the data were processed

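Terminal ileum RNA of 16 mice was sequenced after poly(A) selection with a stranded kit. The authors deposited unnormalized read counts for each Ensembl gene. Alignment was with tophat2 to the mouse build mm10 (GRCm38) and Ensembl 82 annotation; the counter's version and strand setting are not given in the sources used here. Symbols, positions and exon lengths were taken from GENCODE M21 of the same build, in which 26 of 21965 genes of the table are absent, and promoter sequences from RefSeq. The fit, in edgeR 4.0.16 (R 4.3.3), used filterByExpr, TMM scaling, 1 mean per group over all 16 libraries, a robust quasi-likelihood test and Benjamini-Hochberg adjustment over the 13811 genes tested; 95% intervals are Wald intervals. CPM are reads per 1000000 of the library total (8422645 to 11438539) after TMM scaling. The study's cuffdiff2 needs aligned reads and was not run. The fit was tested on simulated counts. Alternatives were DESeq2 1.42.0, limma 3.58.1 (voom), other scalings and filters, only the groups compared, a replicate block and leaving out mice.

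The members, lists and tests were chosen with earlier results of these data known. Named were all aquaporins, of each pathway list the 2 largest called changes in each direction in the mean EtOH vs PF (and Aqp4 anchors called in WT mice), the 3 genes most like each aquaporin by rank, and defining markers that moved with a result. The values of 1 gene that this rule names are not reported here. Lists of epithelial, crypt and ileal bile acid genes were also summed: in the mean EtOH vs PF 2 of 9, 1 of 8 and 1 of 6 were called higher and none lower (18.3% and 17.6% of all genes). Of 75-base windows of the 6 genes' transcripts, 0.364% of those of Aqp7 and 0% of the others occurred in another gene. Mice were separate animals. Intervals on reads cover counting error only.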

Additional observations from a re-analysis of the deposited data

Results flagged for a closer look

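Of 18 sets of 4 or 5 mice (6 aquaporins in WT PF, fat-1 PF and fat-1 EtOH mice), 1 held a mouse far from the others by Dixon's criterion on log2(CPM + 0.5). It was Aqp8 in WT PF 1, at 0.765 CPM (7 reads), where the other 3 WT PF mice had 0 reads. With 3 mice tied at 0, any read in the other mouse meets the criterion, so that the rate of about 1 in 20 sets expected by chance does not apply to it. Car1 was 58.6 CPM in that mouse and 2.39 or less in the other 3. No aquaporin moved in opposite directions in every EtOH mouse of the 2 genotypes.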

How the results depend on the processing

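Of the single fold changes recomputed under an alternative, 819 kept direction and side of the threshold, 39 lost and 9 gained a call, and 42 changed sign, none of which was called by edgeR in the main setting. The number of aquaporins called between fat-1 EtOH and fat-1 PF mice, 5 of 6, was 3 with limma voom (26.4% of all genes called), with the looser filter (27.7%), with the stricter filter (38.7%; Aqp3 and Aqp8 were not tested) and with the 3 large intestine marker libraries left out (29.7%), and 2 with the 2 proximal marker libraries left out (13.9%); it was 2 to 5 leaving out 1 mouse. It fell to 3 or fewer without WT PF 1, 2 or 4, fat-1 PF 2, 3 or 4, or fat-1 EtOH 3. Aqp3 and Aqp11 were called each time they were tested there. The sample labels do not say whether mice of the same replicate number shared a litter or batch. Same-numbered mice correlated at a mean of -0.0225 (other pairs 0.00703). With the replicate block 3 of 6 were called (34.4% of all genes; Aqp4 adjusted p = 0.0561, Aqp8 0.0624), and the Aqp8 interaction changed from -0.96 to 0.08. In WT EtOH vs WT PF, 0 of 6 became 2 with DESeq2 (1.86% of all genes), 4 with limma voom (20.3%) and 3 with only the groups compared (8.32%). In the mean over the genotypes, 5 became 3 with the stricter filter (37.4%), under which Aqp3 and Aqp8 were not tested and the other 3 were called, and 3 without the 2 proximal marker libraries (23.9%), and 4 without the 3 large intestine ones (32.9%). Upper-quartile scaling moved the median of all genes by 0.15 in fat-1 mice and by 0.10 in the mean over the genotypes, and raised the share of calls that were higher to 69.0% and 68.2%; the 5 aquaporins were called in the same directions.

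These signs changed among values that were not called (log2). fat-1 PF vs WT PF: Aqp1 became -0.02 with limma voom, -0.02 with upper-quartile scaling and -0.03 without the proximal marker libraries (-0.14 to 0.18 leaving out 1 mouse), Aqp4 became 0.33 without the proximal marker libraries (-0.31 to 0.12), and Aqp8 0.52 with limma voom (-1.08 to 3.99). WT EtOH vs WT PF: Aqp8 became -1.86 without the large intestine marker libraries (-1.87 to 13.04), and Aqp7 ranged from -0.05 to 0.55. fat-1 EtOH vs WT EtOH: without the large intestine marker libraries Aqp1 became -0.07, Aqp4 -0.65, Aqp8 3.71 and Aqp11 -0.05, and with limma voom Aqp4 became -0.32 and Aqp8 1.26 (leaving out 1 mouse, Aqp4 -0.41 to 0.40, Aqp8 -2.11 to 9.89, Aqp11 -0.05 to 0.11). Interaction: without the large intestine marker libraries Aqp1 became -0.08, Aqp4 -0.62 and Aqp8 3.76, without the proximal ones Aqp4 -0.12 and Aqp8 3.05, and with limma voom Aqp4 -0.27 and Aqp8 0.74 (leaving out 1 mouse, Aqp4 -0.39 to 0.53, Aqp8 -4.98 to 9.91). The cause was not tested. In 6 of the 8 PF mice Aqp8 had fewer than 3 reads, which limits its comparison between them.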
